A study of Mus musculus with 6 samples.

Results

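Described here are 10 genes of glucose uptake and glycolysis in mouse sensory neurons, measured after crush of the sciatic nerve or after sham surgery. They are the glucose transporters Slc2a1 and Slc2a3, the enzymes Hk1, Pfkp, Aldoa, Aldoc, Pgk1 and Eno2 along the pathway, and the lactate dehydrogenase genes Ldha and Ldhb. They were chosen by name: all rows of the authors' deposited isoform table that carried 1 of these names, with any isoform number removed, were taken. This gave 51 isoforms of 60744, in 10 genes of the 17022 gene names in the table.

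The RNA came from neurons cut by laser out of the dorsal root ganglia, clusters of sensory nerve cell bodies beside the spinal cord. The mice were male, of the C57Bl/6 strain, described as adult with an age of 4 to 6 weeks, and no genotype other than the strain was given. The sciatic nerve was crushed for 10 seconds in 1 group (crush) and only laid open for 10 seconds in the other (sham). Ganglia of lumbar levels 3, 4 and 5 on the operated side were taken 7 days later, and there were 3 poly-A selected libraries in each group. Nothing in the sources used here ties the libraries of a group to different mice, so the p-values rest on a spread between samples that could be purely technical. How many of the dissected cell bodies sent their axon through the crush site is not known from the sources used here.

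Glycolysis is the chain of reactions that turns glucose into pyruvate and yields ATP without oxygen. Transporters let glucose in, hexokinase traps it by phosphorylation, phosphofructokinase commits it to the pathway, aldolase splits the sugar, and phosphoglycerate kinase and enolase lead on towards pyruvate. Lactate dehydrogenase then interconverts pyruvate and lactate. Most steps have several isozymes, encoded by separate genes that are used to different degrees by different cell types. In the nervous system Eno2 is known as neuron-specific enolase, Slc2a3 as the main neuronal glucose transporter, and Slc2a1 as the transporter of vessel walls and glia as well as of many other cells.

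Levels were FPKM, fragments of a transcript scaled by the authors for its length and for the mapped fragments of the library, and were summed here over the isoforms of a gene. Read counts cannot be recovered from FPKM, and the depth of the libraries is unknown. The number of genes at 1 FPKM or more was 12087 to 12347 per library. Sham 2 stood apart: across genes it correlated with sham 1 and sham 3 at r = 0.978 and 0.981, whereas all other pairs within a group reached 0.993 to 0.996. It gave the highest value of the 6 libraries for 7 of the 10 genes and the lowest for 1, against 35.1% and 31.4% of all genes tested. All 8 neuron markers found in the table were measured (summed level 4820 to 6647 FPKM in sham and 5287 to 6141 in crush), and markers of other cells were present too, as given further on.

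The 10 genes did not share a direction. Slc2a1 rose, Aldoc fell, and the other 8 genes did not pass the test. The test was limma's moderated test on log2(FPKM + 1) over all 12289 genes with a mean of at least 1 FPKM, with p-values adjusted over all of these genes by the Benjamini-Hochberg method and a threshold of 0.05. Over all genes tested, 3.78% passed, 2.38% with a rise and 1.39% with a fall. In 6 of the 10 genes the 3 crush values lay all above (3 genes) or all below (3 genes) the 3 sham values, against 26.3% of all genes, and 6 of the 10 had an unadjusted p under 0.05, against 17.6% of all genes. The median log2 change of the 10 genes was -0.12, beside -0.02 for all genes tested, with 3 changes above 0 and 7 below. The median was -0.04 without sham 2 and -0.06 under quantile scaling. Without sham 2, 3 of the 10 passed (Slc2a1, Aldoc and Ldhb), and 1174 of all genes did in place of 464. In bulk samples such as these, fewer cells of a type and less RNA per cell cannot be told apart.

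**Figure D1:**
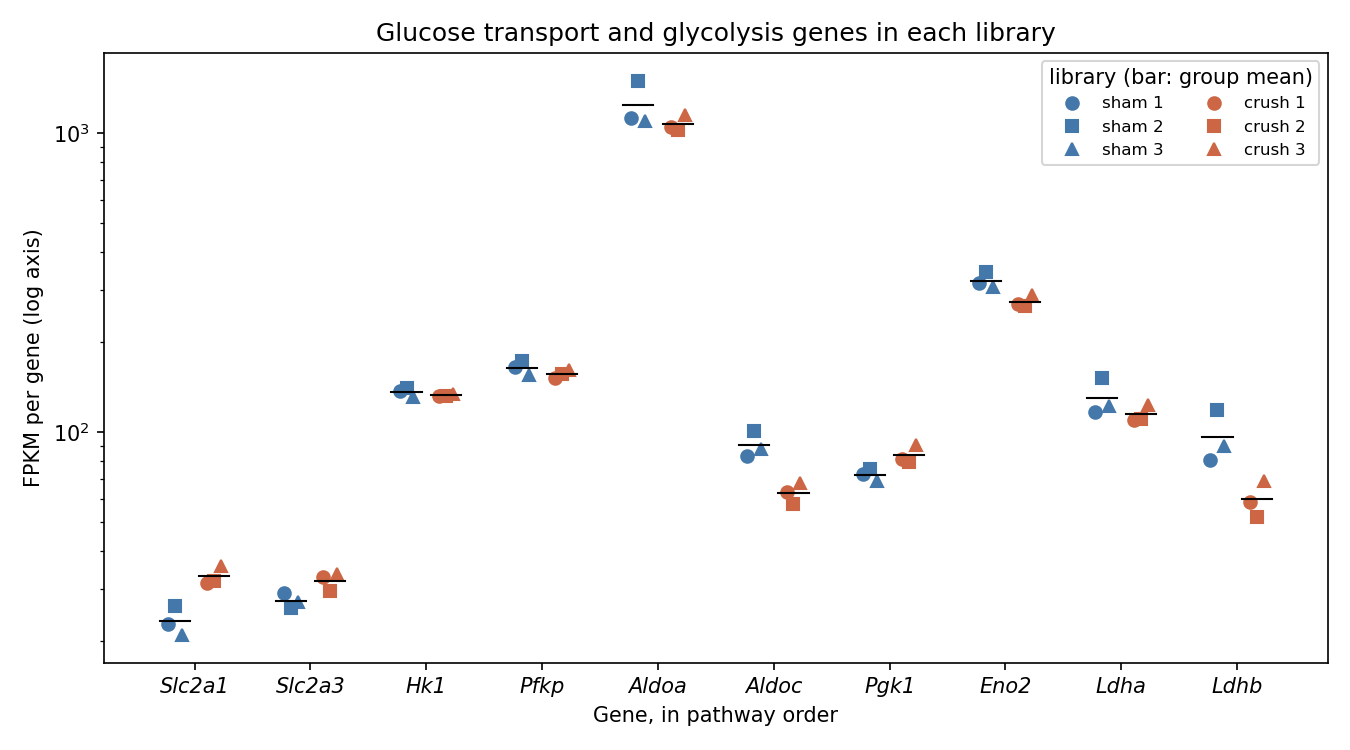
FPKM per gene in each of the 6 libraries, on a log axis, for the 10 genes in pathway order. Symbols are libraries, and black bars are the means of the 3 sham (blue) and 3 crush (orange) libraries. Sham and crush libraries do not overlap for Slc2a1, Slc2a3, Aldoc, Pgk1, Eno2 and Ldhb, and sham 2 is the highest library for Aldoa, Aldoc, Ldha and Ldhb among others.

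FPKM is scaled per length, so levels were set side by side between genes, but only roughly. The sums include short assembled isoforms, such as Pgk1_j1 of 4 exons and 719 bases. Eno2 and Pfkp also share exon bases with other genes. In sham libraries Aldoa was by far the most abundant of the 10, at 1243 ± 224.6 FPKM (mean ± SD with n = 3 per group, here and in all later means), followed by Eno2, Pfkp, Hk1, Ldha, Ldhb, Aldoc, Pgk1, Slc2a3 and Slc2a1. The ranges of Hk1 and Ldha, of Ldha and Ldhb, of Ldhb and Aldoc and of Slc2a3 and Slc2a1 overlapped. In crush libraries Pgk1 stood above Aldoc and Ldhb, and Slc2a1 (32.9 ± 2.41 FPKM) and Slc2a3 (31.9 ± 2.20 FPKM) had overlapping ranges. The transporters were thus the least abundant of the 10 transcripts in both groups.

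Promoter sequence is shown for the genes that rose and fell and for the lactate dehydrogenase pair, whose members lie at different distances from the sham level. ACGTG is a form of the core of the element bound by hypoxia-inducible factors, transcription factors known to drive glycolytic genes such as Slc2a1, Pgk1 and Ldha in many cells. Only ACGTG was searched, on both strands, so as ACGTG or CACGT in the strand of the gene, and CACGTG holds both. The other form of the core, GCGTG, was not searched. The sequences are the 250 bases before the listed transcript start, 5′ to 3′ in the direction of the gene, from RefSeq on build GRCm38.p6. Matches are in capitals. The windows are chr4:119108495-119108744 (plus strand) for Slc2a1, chr11:78322823-78323072 (plus strand) for the first listed start of Aldoc, chr7:46845554-46845803 (plus strand) for the first listed start of Ldha and chr6:142507958-142508207 (minus strand) for Ldhb.
Slc2a1: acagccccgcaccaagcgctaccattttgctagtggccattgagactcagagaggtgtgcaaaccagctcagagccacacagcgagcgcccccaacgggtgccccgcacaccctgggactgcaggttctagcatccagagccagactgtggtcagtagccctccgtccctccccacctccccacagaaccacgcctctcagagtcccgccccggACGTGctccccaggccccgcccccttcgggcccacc
Aldoc: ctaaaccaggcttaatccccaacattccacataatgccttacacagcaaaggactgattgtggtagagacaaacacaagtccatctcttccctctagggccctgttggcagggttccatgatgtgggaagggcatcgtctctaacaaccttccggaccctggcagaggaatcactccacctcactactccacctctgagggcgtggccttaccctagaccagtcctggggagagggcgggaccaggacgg
Ldha: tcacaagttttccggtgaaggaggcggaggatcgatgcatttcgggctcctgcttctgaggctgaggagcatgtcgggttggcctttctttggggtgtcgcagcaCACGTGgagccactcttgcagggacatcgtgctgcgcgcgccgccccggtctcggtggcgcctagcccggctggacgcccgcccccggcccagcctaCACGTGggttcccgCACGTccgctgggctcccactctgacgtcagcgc
Ldhb: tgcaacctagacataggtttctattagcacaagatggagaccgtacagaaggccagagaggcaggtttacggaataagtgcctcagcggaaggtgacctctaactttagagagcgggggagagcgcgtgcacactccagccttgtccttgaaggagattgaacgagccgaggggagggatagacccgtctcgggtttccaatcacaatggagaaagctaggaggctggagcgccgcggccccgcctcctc

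The Slc2a1 window held 1 match, beginning 36 bases before the start. The Ldha window held 5 overlapping or single matches, which begin 145, 144, 48, 47 and 34 bases before the start. The windows of Aldoc and Ldhb held none of the searched letters, though the form GCGTG, which was not searched, can be read in both. RefSeq promoter windows were found for 9 of the 10 genes, 14 windows in all, and Slc2a3 was not matched. Pgk1 had 2 matches, 150 and 131 bases before its start, and Aldoa had 1 site shared by the second and the third of its listed starts. Hk1, Pfkp and Eno2 had none. Thus 4 of the 9 genes held the letters in at least 1 window, beside 18.5% of all 27025 genes, or 16.6% of all 32851 windows. The genes with a match were Slc2a1, which rose, and Pgk1, Aldoa and Ldha, which did not pass the test. A match is a description of the letters and not a binding site.

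Slc2a1 encodes GLUT1, a glucose transporter of broad distribution. It lies on chromosome 4 from 118780693 to 118809860 on the plus strand of build mm9, the build of the authors' table. The sham libraries gave 22.8, 26.1 and 21.0 FPKM and the crush libraries 31.3, 31.8 and 35.7 FPKM. Every crush library lay above every sham library. The mean rose from 23.3 ± 2.61 to 32.9 ± 2.41 FPKM, a ratio of 1.41, with a log2 change of 0.48 (standard error 0.0977, limma adjusted p = 0.0480). The margin was thin: leaving out sham 1, sham 3 or any 1 crush library ended the call (adjusted p = 0.141 to 0.179), whereas without sham 2 it was 0.00685. It also ended without the filter on low values (0.0504), without the mean-variance trend (0.0546) and from reference isoforms only (0.116). The reference isoform held 99.7% of its FPKM, so that setting changed mainly the other genes of the fit. The log2 change was 0.41 to 0.57 throughout.

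Slc2a1 is expressed by vessel walls, glia and immune cells as well, and the captured material held transcripts of such cells. Of the 10 macrophage markers tested 9 rose, and the 11 found in the table summed to 46.0 to 56.4 FPKM in sham and 107 to 116 FPKM in crush libraries. The most abundant of them, the complement gene C1qa, had a mean of 12.96 ± 2.44 FPKM in sham and 27.3 ± 2.06 FPKM in crush (log2 change 1.03, adjusted p = 0.013). That call, too, ended without sham 1, sham 3 or any 1 crush library (adjusted p = 0.0514 to 0.0703). The 9 endothelial markers summed to 60.7 to 77.9 FPKM in sham and 58.7 to 67.9 FPKM in crush, and 0 passed, with 0 at an unadjusted p under 0.05. The part of these cells in the rise of Slc2a1 was not tested.

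Slc2a3 encodes GLUT3 and lies on chromosome 6 from 122677828 to 122751831 on the minus strand. It gave 29.1, 25.8 and 27.0 FPKM in sham and 32.8, 29.4 and 33.5 FPKM in crush. The groups did not overlap, but the lowest crush library exceeded the highest sham library by little. The means were 27.3 ± 1.66 and 31.9 ± 2.20 FPKM, and the log2 change of 0.22 did not pass (standard error 0.0791, adjusted p = 0.221), and was 0.39 from reference isoforms only.

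Hexokinase 1 (Hk1) phosphorylates glucose on entry and is the main hexokinase of neurons. It lies on chromosome 10 from 61731937 to 61861422 on the minus strand. The libraries gave 137, 141 and 131 FPKM in sham and 133, 132 and 135 FPKM in crush, and the groups overlapped. The means were 136 ± 5.04 and 133 ± 1.48 FPKM (log2 change -0.03, standard error 0.0654, adjusted p = 0.841), and the sign turned to 0.01 under upper-quartile and under quantile scaling. Of the 10 genes it had the change nearest to 0.

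Pfkp is the platelet-type gene of phosphofructokinase, the committing step, and lies on chromosome 13 from 6580535 to 6648737 on the minus strand. The values were 165, 173 and 156 FPKM in sham and 151, 157 and 162 FPKM in crush, so the groups overlapped. The log2 change was -0.07 (standard error 0.0734, adjusted p = 0.703). Its exons share 34.4% of their bases with Pitrm1 on the opposite strand, a gene at 5.73 FPKM, and without strand the reads of these bases cannot be assigned to 1 of the genes.

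The aldolase genes differed in their test results. Aldoa, the aldolase of muscle and most other tissues, gave 1124, 1502 and 1103 FPKM in sham and 1053, 1028 and 1157 FPKM in crush. Sham 2 was far above all other libraries, and the groups overlapped. The log2 change was -0.19 (standard error 0.146, adjusted p = 0.574), and -0.05 without sham 2. Aldoa's 6 multi-exon isoforms lie on chromosome 7 from 133938856 to 133944587 on the minus strand. A single-exon row under the same name lies on chromosome 12 from 56666192 to 56667831 and held 3.06% of the gene's FPKM. Reads of near-identical copies can be split between such rows, so this division is uncertain. Without that row, an alternative chosen after seeing the data, the log2 change was again -0.19 (adjusted p = 0.573).

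Aldoc, the aldolase isozyme known from brain, lies on chromosome 11 from 78136412 to 78140146 on the plus strand and had a single isoform. It gave 83.5, 101 and 87.8 FPKM in sham and 63.3, 57.5 and 67.5 FPKM in crush. All crush libraries lay below all sham libraries. The mean fell from 90.7 ± 9.11 to 62.7 ± 5.01 FPKM, a ratio of 0.691, with a log2 change of -0.52 (standard error 0.0984, adjusted p = 0.0389). Leaving out sham 1, sham 3 or any 1 crush library ended the call (adjusted p = 0.0778 to 0.155), as did the use of reference isoforms only (0.104). The single isoform of Aldoc is a reference isoform, so that setting changed only the other genes of the fit and not its own values. The log2 change was -0.58 to -0.45 in all alternatives. Without sham 2 the adjusted p was 0.0162. In the brain Aldoc is a marker of astrocytes, and the 13 glial markers tested here summed to 1609 to 1856 FPKM in sham and 1601 to 1748 FPKM in crush, with 0 past the threshold and 3 at an unadjusted p under 0.05. Their part in the fall of Aldoc was not tested.

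Phosphoglycerate kinase 1 (Pgk1) makes the first ATP of the pathway. Its 3 isoforms lie on chromosome X from 103389971 to 103399038 on the plus strand. All 3 are assembled without a reference identifier and may not span the whole gene. Pgk1 gave 72.8, 75.3 and 68.6 FPKM in sham and 81.4, 79.5 and 90.7 FPKM in crush. The groups did not overlap, with crush above sham. The log2 change of 0.21 did not pass (standard error 0.0782, adjusted p = 0.225).

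Neuron-specific enolase (Eno2) converts phosphoglycerate to phosphoenolpyruvate and lies on chromosome 6 from 124709472 to 124719864 on the minus strand. It gave 317, 343 and 306 FPKM in sham and 269, 264 and 287 FPKM in crush. The groups did not overlap, with crush below sham. The means were 322 ± 19.3 and 273 ± 12.2 FPKM (log2 change -0.23, standard error 0.0826, adjusted p = 0.206). It passed when libraries were weighted by their spread (adjusted p = 0.0466), and from its reference isoform only, which held 3.34% of its FPKM, the log2 change was -0.02. Its exons share 43.2% of their bases with Atn1, a gene on the same strand at 26.8 FPKM, so some of the reads may be divided uncertainly between them.

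Lactate dehydrogenase is a tetramer built from the muscle-type chain, encoded by Ldha, and the heart-type chain, encoded by Ldhb. Ldha, on chromosome 7 from 54100823 to 54110999 on the plus strand, gave 117, 152 and 122 FPKM in sham and 109.8, 111 and 124 FPKM in crush. The groups overlapped and sham 2 was the highest library. The values of crush 1 and crush 2 are marked as not OK in the authors' deposited table. The log2 change was -0.18 (standard error 0.116, adjusted p = 0.502), and -0.06 without sham 2.

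Ldhb, on chromosome 6 from 142438828 to 142456667 on the minus strand, gave 80.8, 119 and 89.8 FPKM in sham and 58.3, 52.1 and 68.8 FPKM in crush. All crush libraries lay below all sham libraries. The means were 96.5 ± 19.8 and 59.7 ± 8.43 FPKM, a ratio of 0.619, and the log2 change of -0.67 was the largest of the 10 genes in size. It did not pass (standard error 0.163, adjusted p = 0.0823), and the sham libraries were widely spread. It passed without sham 2 (log2 change -0.51, adjusted p = 0.0370), under quantile scaling (0.0389) and when libraries were weighted by their spread (0.0139), and over all alternatives its adjusted p was 0.0139 to 0.267.

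Isozyme shares ask which gene supplied most of the transcripts of a step. Each was the percentage of the summed FPKM of the isozymes of that step, compared with an exact 2-sided permutation test over the 6 libraries, in which 3 against 3 cannot give a p under 0.1. No share could therefore pass 0.05, and the p-values were also adjusted over the 6 steps. The Ldha share of Ldha plus Ldhb was 59.1%, 56.2% and 57.7% in sham and 65.3%, 68.0% and 64.2% in crush. All crush libraries lay above all sham libraries, and the means of 57.7 ± 1.44% and 65.9 ± 1.95% differed by 8.22 percentage points (exact permutation p = 0.1, adjusted p = 0.2). In these shares sham 2 did not stand apart from sham 1 and sham 3, although it had the highest FPKM of both genes. The authors' deposited table marks all 4 Ldha isoforms as not OK in crush 1 and crush 2, so of the crush shares that of crush 3, the lowest, is the one without such a mark.

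The Pfkp share of the phosphofructokinase genes was 59.4%, 57.1% and 58.2% in sham and 61.5%, 62.5% and 62.5% in crush, a difference of 3.92 points with no overlap (exact permutation p = 0.1, adjusted p = 0.2). The other genes of this step were the muscle-type Pfkm (93.4 ± 6.52 and 74.8 ± 0.968 FPKM in sham and crush, log2 change -0.32, adjusted p = 0.0707) and the liver-type Pfkl (24.6 ± 3.66 and 20.5 ± 0.672 FPKM, log2 change -0.24, adjusted p = 0.298, and -0.13 without sham 2). The crush values of both lay below all their sham values, and neither passed the test. Pfkm passed without sham 2 (adjusted p = 0.0228), under quantile scaling (0.0462) and with weighted libraries (0.0106). For aldolase, the Aldoa share was 93.1%, 93.7% and 92.6% in sham and 94.3%, 94.7% and 94.5% in crush, again without overlap (difference 1.37 points, exact permutation p = 0.1, adjusted p = 0.2). The difference was 1.41 points without the row on chromosome 12, and 6.42 points from reference isoforms only.

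Slc2a1 made up 43.9%, 50.3% and 43.8% of the sum of Slc2a1 and Slc2a3 in sham and 48.8%, 52.0% and 51.6% in crush. Here the groups overlapped through sham 2 (difference 4.80 points, exact permutation p = 0.2, adjusted p = 0.3), and from reference isoforms only the difference was 1.80 points. Hk1 held 98.4 ± 0.192% and 98.3 ± 0.124% of the hexokinase genes in the table, and its nearest tested isozyme, the blood-cell hexokinase Hk3, was at 1.36 ± 0.451 and 1.38 ± 0.179 FPKM. Eno2 held 99.1% in both groups of the sum with the muscle enolase Eno3 (2.81 ± 0.436 and 2.39 ± 0.163 FPKM). Eno1, the widely expressed enolase, was not analysed here, so this last share does not describe all enolase.

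**Figure D2:**
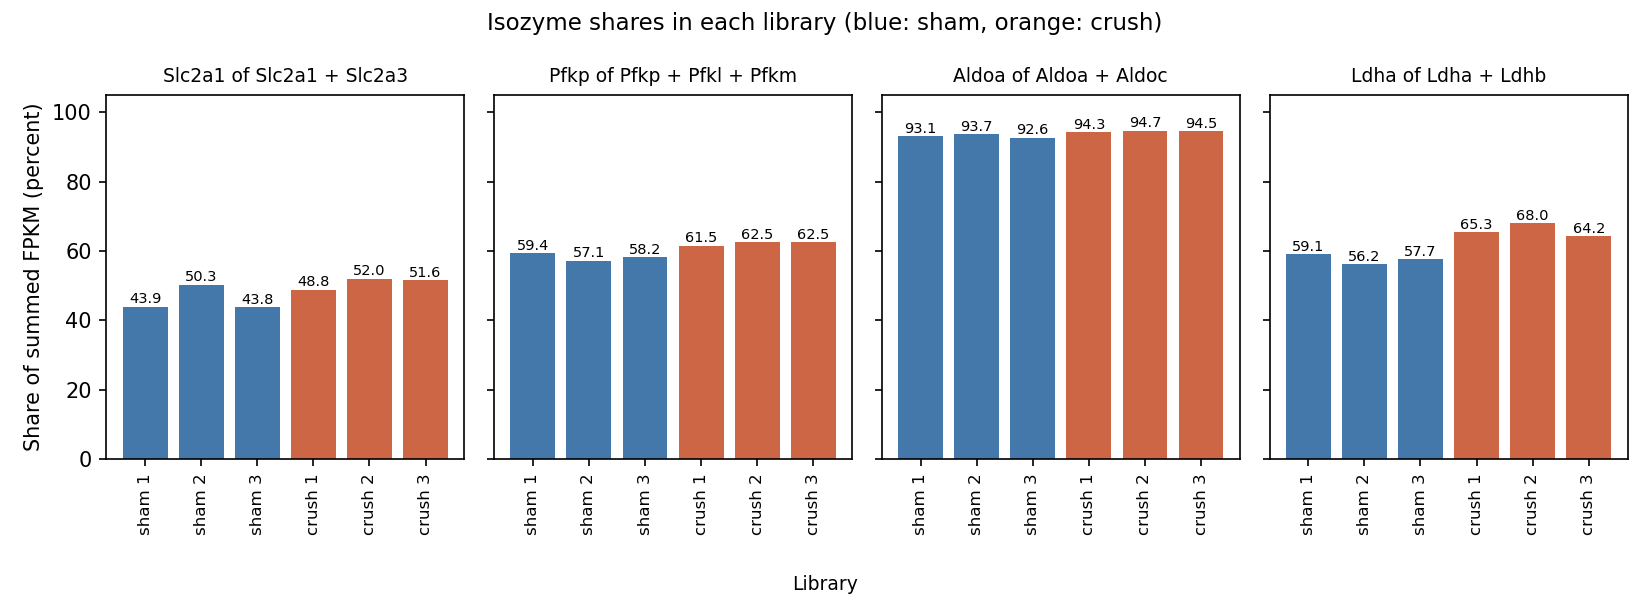
Share of the named gene in the summed FPKM of its isozymes, in percent, for each of the 3 sham (blue) and 3 crush (orange) libraries at 4 steps, with axes from 0. Crush bars are above all sham bars for Pfkp, Aldoa and Ldha, and for Slc2a1 sham 2 (50.3%) is above crush 1 (48.8%).

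The 51 isoforms were unevenly spread, from 1 for Aldoc to 9 each for Slc2a3 and Hk1. In all, 34 of the 51 reached a mean of 1 FPKM and were tested, and the other 17 were not. None passed, beside 0.0613% of all isoforms tested, and 5 of the 34 had an unadjusted p under 0.05, against 9.12% of all isoforms. Weighting the libraries by their spread called 4 of them, but it also called many more of all isoforms, as given further on. Whether the 4 calls set these genes apart was not tested. The smallest adjusted p was 0.151, of the reference isoform of Ldhb, which gave 27.3, 35.4 and 33.5 FPKM in sham and 19.6, 16.8 and 19.4 FPKM in crush. A test of whether the isoforms of a gene change unequally (limma's diffSplice) could be run on 8 of the 10 genes. It called 0 of them, each at an adjusted p of 1.0 and 0 with an unadjusted p under 0.05, where 0.445% of all genes passed.

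The 3 isoforms of Ldhb held 39.6% (Ldhb_j2), 32.4% (reference) and 28.0% (Ldhb_j1) of its FPKM, and their log2 changes were -0.60, -0.75 and -0.61. The lower level of Ldhb in crush libraries was thus spread over all 3. Slc2a1 came almost wholly, to 99.7%, from its reference isoform of 10 exons. Hk1 was divided between Hk1_j4 (39.9%), the short Hk1_j2 of 8 exons (31.9%) and the reference isoform (14.9%). These start at different places on the minus strand, at 61781062, 61861412 and 61803693. Hk1_j4 held 37.8%, 36.8% and 38.1% of Hk1 in sham and 41.9%, 41.8% and 43.0% in crush, without overlap, while its own level did not pass (log2 change 0.13, adjusted p = 0.674).

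Pfkp was divided between Pfkp_j3 (54.0%), the reference isoform (26.6%) and Pfkp_j1 (19.2%), with log2 changes of -0.03, -0.13 and -0.07. For Aldoa the main isoforms were Aldoa_j3 (61.2%) and Aldoa_j1 (23.5%), with log2 changes of -0.13 and -0.28. Pgk1 was built from the assembled isoforms Pgk1_j1 (51.4%, 4 exons) and Pgk1_j2 (48.1%, 3 exons), and no Pgk1 isoform carried a reference identifier. None of these isoforms passed the test.

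Sham 2 stood apart in the division of several genes among their isoforms. Eno2_j1 held 71.8% and 65.6% of Eno2 in sham 1 and sham 3 and 58.8% to 72.1% in crush, but 22.7% in sham 2. Its place was taken there by Eno2_j6, at 45.9% in sham 2, 0.47% and 0.66% in sham 1 and sham 3, and up to 10.2% in crush. Over the 6 libraries Eno2_j4 (13.8% on average) held 12.8% to 14.4%, and Eno2_j3 (12.3% on average) held 10.3% to 14.6%. For Slc2a3 the reference isoform held 35.8% in sham 2 and 53.8% to 60.8% elsewhere, with Slc2a3_j4 (32.3% on average) at 44.6% in sham 2. Pgk1_j1 held 36.6% in sham 2 and 50.7% to 57.4% elsewhere. Pfkp_j3 held 48.2% in sham 2 and 53.3% to 57.7% elsewhere. The Ldha reference isoform held 71.8% in sham 2 and 51.1% to 67.0% elsewhere, and Ldha_j4 13.6% against 31.8% to 47.6%. The authors' deposited table marks the values of 5 of the 51 isoforms as not OK in some libraries, namely those of Ldha in crush 1 and crush 2, and the single-exon Aldoa row in sham 3.

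**Figure D3:**
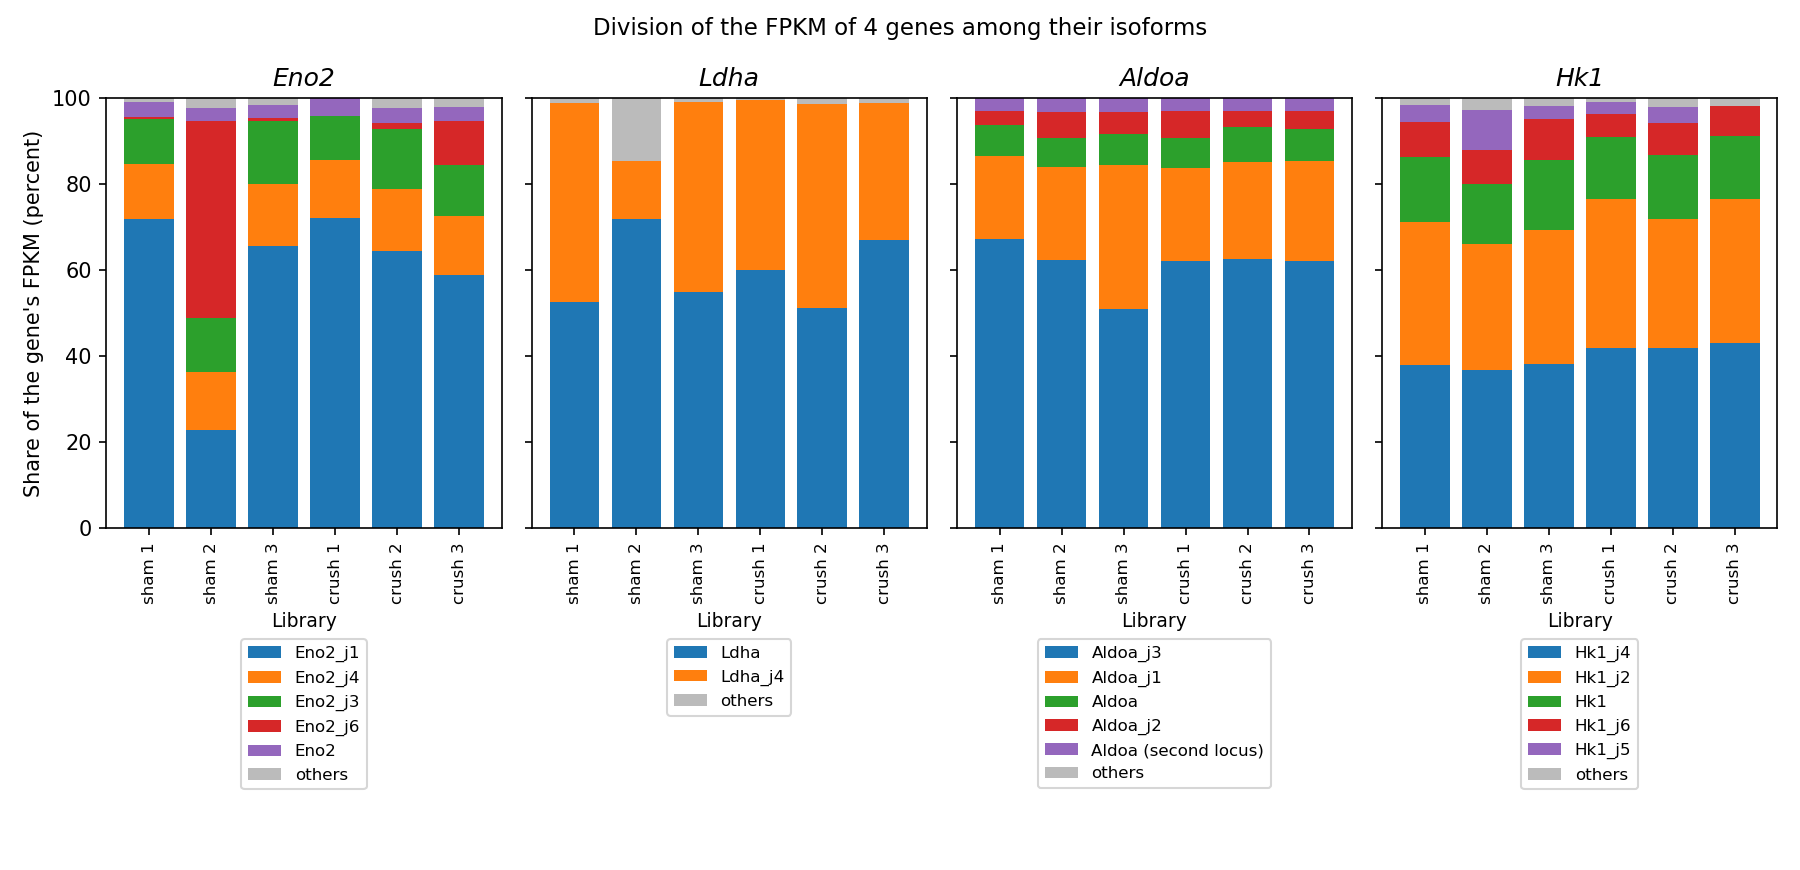
Division of the FPKM of Eno2, Ldha, Aldoa and Hk1 among their isoforms in each of the 6 libraries, as stacked bars in percent of the gene, with the smaller isoforms pooled as others. In sham 2, Eno2_j6 takes 45.9% of Eno2 and the Ldha reference isoform 71.8% of Ldha. For Aldoa, the second locus is the single-exon row.

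The deposited table gives an interval for each isoform value. For the Slc2a1 reference isoform the half-width was 23.3% of the value at the median, and the sham intervals reached up to 31.8 FPKM while the crush intervals began at 24.1. For Aldoc the crush intervals reached up to 82.8 FPKM and the sham intervals began at 64.9. In both genes the intervals of single libraries in the authors' deposited table therefore overlapped between groups. The authors' deposited table also holds a comparison of the groups. Its test status was a failure for 27416 of all 60744 isoforms, and for 49 of the 51 described here. The other 2 were Aldoc, at 89.8 FPKM in sham and 68.4 FPKM in crush in the authors' deposited table (log2 change -0.39, q = 0.000285, marked significant, as were 15.1% of the isoforms tested there), and the single-exon Aldoa row (34.9 and 35.1 FPKM, q = 0.985, not marked) in the authors' deposited table.

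Aldoc had the smallest adjusted p of the 10 genes, and the 3 genes whose profile over the 6 libraries lay nearest to it were sought by the root mean square distance of centred log2(FPKM + 1) values. They were chromogranin A (Chga, distance 0.0386), the channel protein gene Panx2 (0.0485) and chromogranin B (Chgb, 0.0496). The chromogranins are proteins of secretory granules. Chga went from 91.6 ± 10.7 to 63.6 ± 2.65 FPKM (log2 change -0.51), close to the level of Aldoc itself. Panx2 went from 32.8 ± 3.21 to 22.7 ± 0.751 FPKM (-0.51) and Chgb from 34.5 ± 2.59 to 25.1 ± 1.91 FPKM (-0.44). Since they were chosen for likeness to a gene that fell, their own falls are a description.

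Other genes of the pathway were examined in lists by role. Among other glucose transport genes, 8 of 15 listed could be tested and 0 passed, 3 at an unadjusted p under 0.05, with a median log2 change of -0.08. The smallest adjusted p was that of the intracellular transporter Slc2a8, at 9.20, 9.89 and 9.64 FPKM in sham and 7.13, 7.59 and 7.93 FPKM in crush (log2 change -0.31, adjusted p = 0.0650). The groups did not overlap, and it passed without sham 2 (0.0412) and with weighted libraries (0.0158). The most abundant was the neuronal sugar transporter Slc45a1, at 36.5 ± 0.505 and 32.8 ± 1.51 FPKM (-0.15, adjusted p = 0.266).

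Among other enzymes of glycolysis, 9 of 21 listed were tested and 0 passed, 1 at an unadjusted p under 0.05, with a median log2 change of -0.16. Pfkm, given above, had the smallest adjusted p. Pyruvate kinase (Pkm2), which forms pyruvate, was the most abundant at 705, 711 and 715 FPKM in sham and 693, 649 and 722 FPKM in crush (log2 change -0.05, adjusted p = 0.833), and its groups overlapped. Rows named Gapdh lay on chromosome 9 at 0.713 to 1.23 FPKM and were not taken as the level of that enzyme.

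Among genes that control glycolysis, 9 of 12 listed were tested, 1 rose and 0 fell. Of the 9, 2 had an unadjusted p under 0.05, and the median log2 change was 0.02. The gene that rose was Pfkfb4, a bifunctional enzyme that sets fructose-2,6-bisphosphate, the activator of phosphofructokinase. It gave 6.59, 6.76 and 6.00 FPKM in sham and 8.77, 8.79 and 9.83 FPKM in crush, without overlap (log2 change 0.44, adjusted p = 0.0331). Leaving out sham 1, sham 3 or any 1 crush library ended this call (adjusted p = 0.0933 to 0.131), as did the use of reference isoforms only (0.178). By the mean of all 6 libraries the most abundant was the phosphatase Pgp, at 33.5 ± 14.2 and 26.5 ± 3.88 FPKM (-0.27, adjusted p = 0.679, and 0.05 without sham 2). In crush Pfkfb3, of the same enzyme family as Pfkfb4, lay above it, at 28.8 ± 0.280 FPKM, a comparison chosen after its values were seen. Pfkfb3 was at 23.0 ± 2.91 FPKM in sham, and its crush values lay all above its sham values. Its log2 change of 0.32 did not pass (adjusted p = 0.145).

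Among genes of lactate and pyruvate handling, 18 of 24 listed were tested and 0 passed, 2 at an unadjusted p under 0.05, with 3 changes above 0 and 15 below and a median of -0.09. Pdk3, a kinase that inhibits pyruvate dehydrogenase, was nearest to the threshold at 11.5 ± 0.493 and 8.88 ± 0.478 FPKM (log2 change -0.34, adjusted p = 0.0509). It passed without sham 2 (0.0182), under quantile scaling (0.0449) and with weighted libraries (0.00818). Basigin (Bsg), the partner of lactate transporters, was the most abundant at 243 ± 33.3 and 220 ± 18.1 FPKM (-0.14, adjusted p = 0.617, and -0.03 without sham 2).

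**Figure D4:**
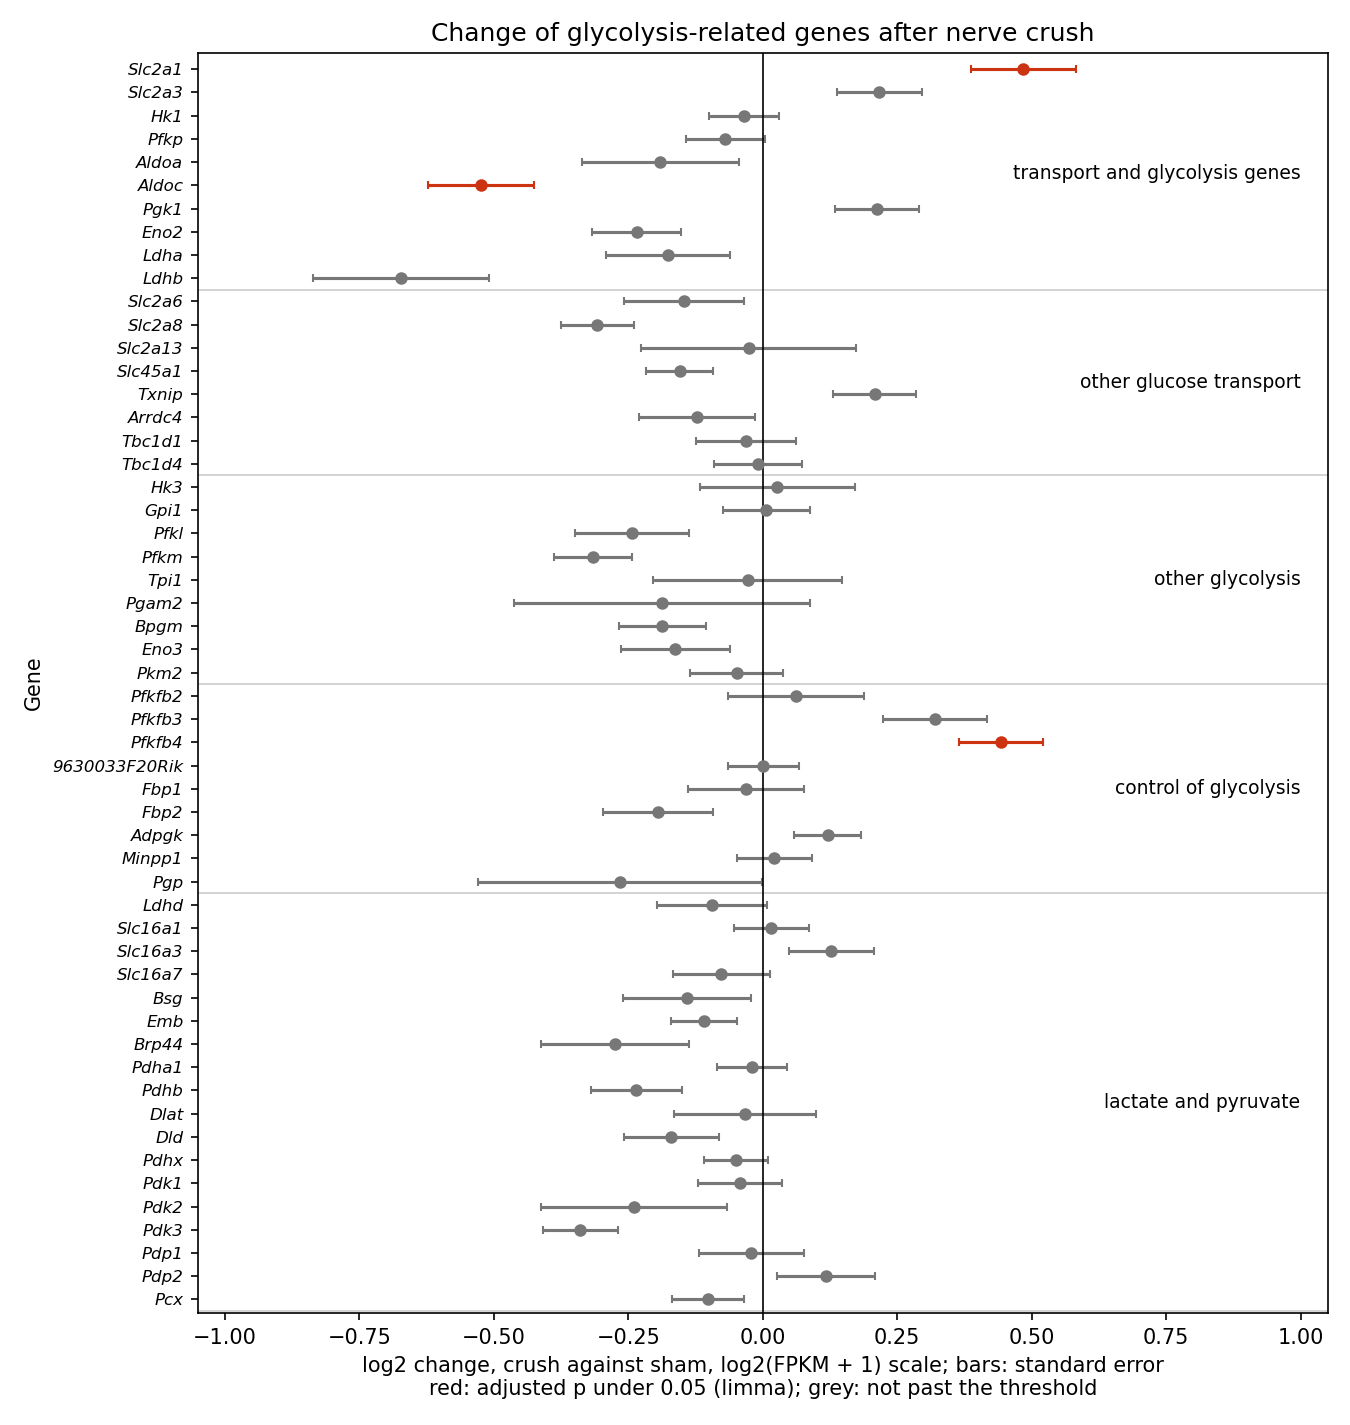
Log2 change from sham to crush with its standard error, on the log2(FPKM + 1) scale, for the 10 genes and the tested genes of 4 other lists. Red marks an adjusted p under 0.05 (limma) and grey the rest: Slc2a1 (0.48) and Pfkfb4 (0.44) are to the right of 0, Aldoc (-0.52) is to the left, and Ldhb (-0.67) lies farthest left without passing.

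Markers of the remaining cell types gave these values. The 7 fibroblast markers summed to 118 to 158 FPKM in sham and 181 to 193 FPKM in crush. Of these 0 passed, 6 had an unadjusted p under 0.05, and all 7 changes were above 0. The most abundant, decorin (Dcn), gave 73.2 ± 12.9 and 95.6 ± 3.36 FPKM (log2 change 0.40, adjusted p = 0.173). It passed without sham 2 (adjusted p = 0.0200) and with weighted libraries (0.00785). Of the glial markers the myelin gene Pmp22 was the most abundant by the mean of all 6 libraries, at 389 ± 30.2 and 430.4 ± 15.1 FPKM (0.15, adjusted p = 0.455). In sham S100b, named after its values were seen, lay above it at 415 ± 87.8 FPKM. The endothelial gene Egfl7 was at 27.5 ± 7.12 and 22.8 ± 1.87 FPKM (-0.24, adjusted p = 0.541, and -0.04 without sham 2). The hemoglobin gene Hba-a2, a mark of blood, ranged from 85.0 to 194 FPKM over the libraries with overlap (0.20, adjusted p = 0.819). Of the 8 neuron markers tested 0 passed, 2 had an unadjusted p under 0.05, and 2 changes were above 0 and 6 below. The 2 with such a p, named after their values were seen, were Rbfox3 (log2 change -0.27) and Isl1 (-0.26). The crush values of both lay all below their sham values. The neuronal tubulin Tubb3, the most abundant by the mean of all 6 libraries, was 1 of those above 0. It was at 1822 ± 251.7 and 2198 ± 217 FPKM (0.27, adjusted p = 0.394, and 0.12 under quantile scaling). No marker in the table was at 0 in all libraries. What part these cells have in the changes of the 10 genes was not tested.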

How the data were processed

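Expression was read from the authors' deposited table, which gives FPKM per isoform and library with an interval and a status, and the authors' own group comparison as a log2 fold change, a p-value and a q-value. The submitters' processing notes name build mm9 and, as tools, Cuffdiff 1.2.1, Cufflinks 1.1.0 and TopHat 1.3.2. Strand was not stated to be kept. Per the labels' protocols 500 ng of RNA entered each preparation, and the barcoded libraries shared 3 lanes. The sources used here give no other batches. The authors' exon file gave positions.

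Here, isoform numbers were removed from names, FPKM was summed per gene, and log2(FPKM + 1) was tested with limma 3.58.1 in R 4.3.3, where the mean of the 6 samples reached 1 FPKM. The log2 scale with a pseudocount of 1 understates changes of low genes. Shares were tested exactly with scipy 1.17.1, and other steps used matplotlib 3.10.9, numpy 2.4.6, pandas 2.3.3 and Python 3.11.15. Each test was tested on simulated data. Alternatives covered the pseudocount, the filter, scaling, the trend, library weights, the replicate block, each left-out library and reference isoforms. The sources used here do not say whether the replicate numbers pair the samples, and the main tests did not pair them.

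The 10 genes, the lists and the tests were chosen with earlier results of these data known. Named beside the 10 genes are their isozymes, their isoforms of at least 10% of the gene, and from each other list up to 2 genes called in each direction (or that of smallest adjusted p) and the most abundant. The most abundant gene of each marker list and the 3 genes nearest to the gene of smallest adjusted p were added. Promoters came from RefSeq tables on GRCm38.p6; no coordinates of the builds were mixed.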

Additional observations from a re-analysis of the deposited data

How the results depend on the processing

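Calls depended on which libraries were used. Over all genes the count went from 464 to 1429 with library weights, 50 with the replicate block and 67 from reference isoforms only, where fewer genes were tested, and lay between 53 and 1174 with 1 library left out, the highest count being that without sham 2. Of the 10 genes, 2 were called, 1 without the filter, 1 without the trend, 4 with library weights, 0 with the replicate block, 0 from reference isoforms only and 0 to 3 with 1 library left out. With the block, the adjusted p was 0.167 for Slc2a1 and 0.160 for Aldoc. Deviations of same-numbered libraries correlated at 0.37, -0.31 and -0.49, and not every library correlated best with its own number. Deviations from the mean of only 3 libraries depend on one another, so these values cannot decide whether the numbers pair the samples. Isoforms called were 15, and 32 with a pseudocount of 5, 7 without the filter, 30 under upper-quartile scaling and 42 under quantile scaling. With library weights 1355 of 24485 isoforms were called, and 4 of the 34 tested isoforms of the 10 genes. The count was 0 with the block and 0 to 45 with 1 library left out. Genes with unequal isoform changes were 30, and 56 with a minimum of 0.1 FPKM, 5 with the block and 9 to 70 with 1 library left out. The cause was not tested.

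Signs turned for few results. Hk1 was at 0.00834 under upper-quartile scaling and 0.0105 under quantile scaling, Hk3 at -0.0101 under quantile scaling and G6pdx at -0.00612 from reference isoforms only. With 1 library left out, the ranges were -0.176 to 0.0154 points for the Hk1 share, -0.0564 to 0.0296 points for the Eno2 share, and on the log2 scale -0.0798 to 0.177 for Hk3, -0.00887 to 0.582 for Hba-a2, -0.0659 to 0.152 for Tkt and -0.439 to 0.0509 for Pgp. Reference isoforms gave no value for the Eno2 share nor for Pgk1, Bnip3, Eno3, Hba-a2, Hk3, Pdk3, Pfkl, Pkm2, Slc2a8 and Tkt. Depth is unknown, so its limit cannot be stated.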

Other observations

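The pentose phosphate pathway branches from glycolysis after hexokinase and supplies NADPH and ribose. All 8 listed genes were tested and 0 passed, 1 at an unadjusted p under 0.05 (limma), with a median log2 change of 0.03. Its entry enzyme, glucose-6-phosphate dehydrogenase (G6pdx), gave 16.96, 16.6 and 15.8 FPKM in sham and 20.1, 19.0 and 19.6 FPKM in crush libraries. The groups did not overlap, with crush above sham, and the log2 change of 0.24 did not pass (adjusted p = 0.0964), but did without sham 2 (0.0450) and with weighted libraries (0.0287). From reference isoforms only it was -0.01. Transketolase (Tkt), the most abundant gene of the list, was at 141 ± 25.0 and 141 ± 12.4 FPKM (0.01, adjusted p = 0.978).

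Of 20 listed genes of the hypoxia response, which include the factor subunits Hif1a, Epas1 and Arnt and their regulators beside known targets, 16 were tested, 0 rose and 1 fell, with a median log2 change of -0.03. The gene that fell was Bnip3, a mitochondrial protein gene of mitophagy, at 32.4, 30.4 and 32.7 FPKM in sham and 24.9, 25.2 and 25.1 FPKM in crush, without overlap (log2 change -0.33, limma adjusted p = 0.0353). The call ended when sham 1, sham 3 or any 1 crush library was left out (adjusted p = 0.123 to 0.168), under upper-quartile scaling (0.0737) and under quantile scaling (0.0617). Ndrg1, the most abundant of the list, was at 96.9 ± 3.60 and 110.7 ± 7.48 FPKM (0.19, adjusted p = 0.267). Its crush values lay all above its sham values. Of the 16 genes tested, 3 had an unadjusted p under 0.05, against 17.6% of all genes. Changes were above 0 for 6 and below 0 for 10. The crush values lay all above the sham values in 2 genes and all below in 2, against 12.2% and 14.1% of all genes. The direction of Slc2a1 was thus that of Ndrg1 and not that of Bnip3, and the differences between these genes were not tested.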
